A study of Mus musculus with 5 samples.

Results

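Merging the peaks of 3 β-catenin ChIP-seq libraries from mouse embryonic stem cells left 33485 regions, and 1180 of them held at least 1 peak of every list. These regions, called the common regions here, were chosen by that overlap alone: intervals that overlapped or touched were joined, and a region was kept if each list had a peak in it. The cells were one V6.5 line in which the endogenous Ctnnb1 gene carries a tag with a biotin acceptor site and 3xFLAG, together with the biotin ligase BirA, cultured with serum, LIF and DR4 feeders, and plated on gelatin before collection to enrich for the stem cells. All libraries analysed carry the tag, so none shows what the captures recover without it. The first library came from cells given CHIR99021 and captured with anti-FLAG, the next from cells given CHIR99021 and captured with streptavidin, and the last from cells given DMSO and captured, as labelled, with streptavidin. CHIR99021, a GSK3 inhibitor, was given at 3 µM per its label (the extraction text writes mM), and the time was 16 hours in the protocol but 24 hours in the series text. The name of the DMSO peak run says FLAG, although its alignment file and its label say biotin or streptavidin. The peak calls themselves chose the common regions, so their tags, enrichments and summits are given as a description. Unique tags numbered 16100920 with anti-FLAG and 11934863 with streptavidin under CHIR99021. Each condition had 1 library, so no value has a replicate error, and no test between conditions was possible.

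β-Catenin has no DNA-binding domain of its own and reaches chromatin mainly through the TCF and LEF factors. GSK3 marks it for degradation, and CHIR99021 inhibits that kinase, so that β-catenin accumulates and enters the nucleus. In embryonic stem cells the pathway is known for its support of self-renewal, in part by lifting the repression that TCF7L1 places on genes of the pluripotency network. Some β-catenin also sits at cell junctions in untreated cells.

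The common regions tended to have more CHIR99021 tags than the remaining regions of both CHIR99021 lists, though the ranges overlapped. A tag is 1 mapped read, and the tags of a region were summed over the peaks of a list, as counted by the peak caller MACS. In the anti-FLAG library the lowest common region had 17 tags, the median was 118.5 and the highest had 2435. In the CHIR99021 streptavidin library the values were 13, 100 and 3111. In the DMSO library they were 6, 9 and 3073. The smallest DMSO peak that was called had 6 tags, so no common region could have fewer. The 7933 regions that both CHIR99021 lists share but that lack a DMSO call, called the other regions here, had medians of 51 and 43 tags in the anti-FLAG and streptavidin libraries. Of all 9113 regions of both CHIR99021 lists, 12.9% held a DMSO peak, which is the share that the choice of the common regions fixes. Their peaks accounted for 1.15% of unique tags with anti-FLAG and 1.34% with streptavidin. The DMSO header states no depth, so DMSO tags can be ranked among regions but not set against those of the other libraries as levels.

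Tags of both captures under CHIR99021 followed each other closely over the common regions. In CPM, a region's tags scaled to the unique tags of its library, the anti-FLAG to streptavidin ratio had a median of 0.861, with 10% of regions below 0.661 and 10% above 1.18. Across the 1180 regions, Pearson's r between log2 tags was 0.933 for anti-FLAG and streptavidin, 0.642 for DMSO and anti-FLAG and 0.605 for DMSO and streptavidin. These coefficients describe points that share a library and that were chosen for having a peak in each, and the DMSO values are cut off at their lower end. DMSO tags tracked CHIR99021 tags more loosely, with a median of 0.108 DMSO tags for each streptavidin tag and an interquartile range of 0.0727 to 0.163.

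**Figure D1:**
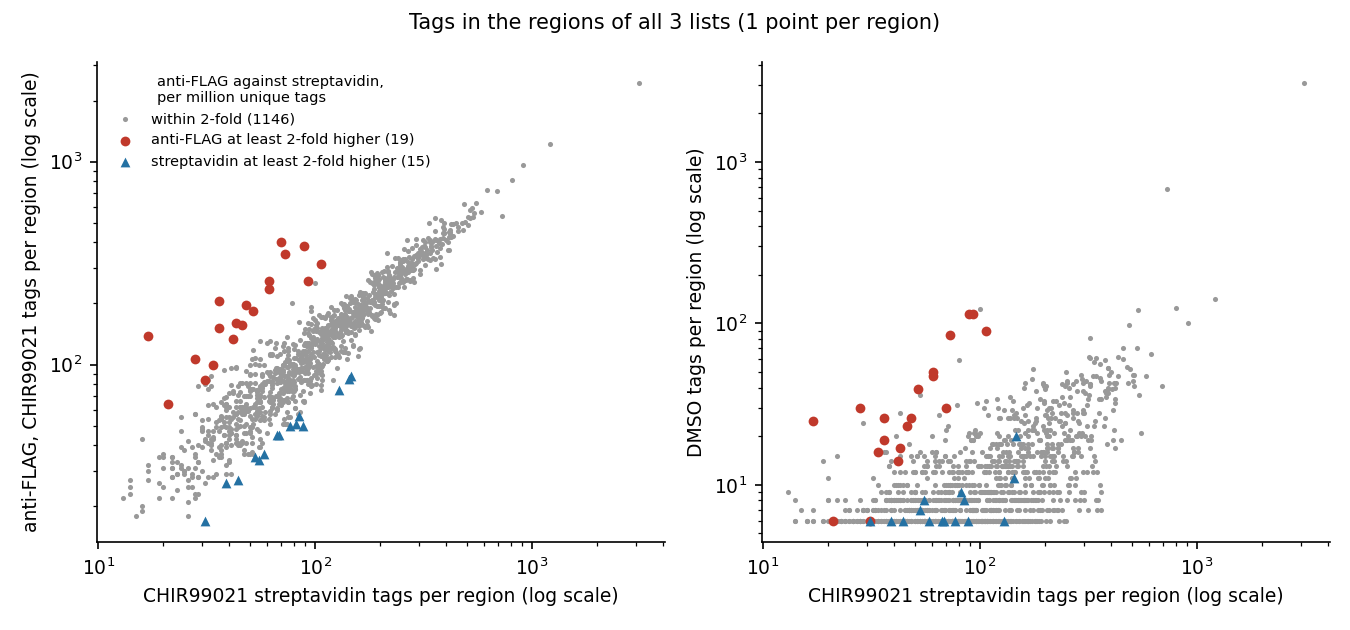
Tags per common region, 1 point per region on log axes: anti-FLAG (left) and DMSO (right) against CHIR99021 streptavidin. Red points are the 19 regions with at least 2-fold more anti-FLAG than streptavidin in CPM, and blue triangles the 15 with the opposite balance; red points lie high on the right as well, while the floor of 6 DMSO tags forms the lowest row.

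Most common regions rested on few DMSO tags. In 311 of them (26.4%) the DMSO peak had 6 tags, in 336 the DMSO tags numbered 7 to 9, and 533 (45.2%) had 10 or more. At least 20 DMSO tags were counted in 225 regions (19.1%). The whole DMSO list was lower still: 9083 of its 12734 peaks had 6 tags. Its median was 6 tags per peak, against 8 for the DMSO peaks in common regions. Of the whole list, 12.3% of peaks lay in common regions. That share was 5.01% for DMSO peaks of 6 tags and 57.7% for those of 10 to 14. Regions with more DMSO tags also had more CHIR99021 tags: the median streptavidin count was 64 where DMSO had 6 tags, 115 where it had 10 to 14 and 212 where it had 20 to 49. The median fold enrichment of the streptavidin peak over local background, the authors' own value, went from 13.18 to 17.45 and 31.05 over the same classes. By the caller's false discovery rate (FDR), the leading DMSO peak lay at or below 5% in 691 common regions (58.6%) and at or below 1% in 7. Up to 49 DMSO tags that rate did not fall as tags rose. At or below 5% lay 92.9% of the common regions with 6 DMSO tags and 9.90% of those with 20 to 49. Over that range it therefore does not mark the stronger DMSO peaks. Among the regions with the most DMSO tags the rate was 0% in some, as at 3073, 680 and 141 tags. In others, with 125 and 98 DMSO tags, it was 7.14% and 9.38%. The anti-FLAG and streptavidin libraries each had 20 or more tags in 1163 of the 1180 regions.

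**Figure D2:**
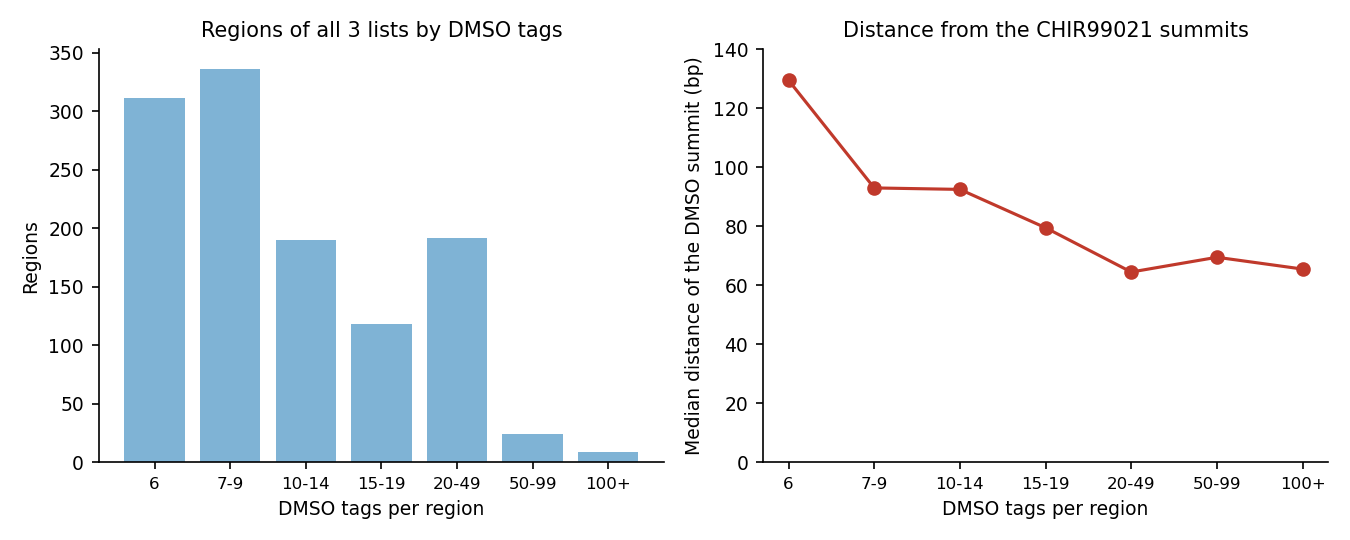
Left, number of common regions by DMSO tags per region. Right, median distance in bp between the DMSO summit and the midpoint of both CHIR99021 summits in the same classes; it goes from 129.5 bp at 6 tags to 64.5 bp at 20 to 49 tags, and the last class holds 9 regions.

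Ranking all 9113 regions of both CHIR99021 lists by their summed CPM showed where the common regions sit. The 10 regions with the most CHIR99021 tags all held a DMSO peak, as did 80 of the top 100 (80.0%, exact interval 70.8 to 87.3%) and 317 of the top 500 (63.4%, 59.0 to 67.6%). In the top decile, 472 of 912 regions held one (51.8%, 48.5 to 55.0%). In the decile below it 22.7% did (20.04 to 25.6%), in the fifth decile from the bottom 7.13% (5.54 to 8.99%) and in the lowest 1.86% (1.09 to 2.97%). The intervals are Clopper-Pearson intervals over regions and cover counting error only. The share was nearly the same when regions were ranked by one capture alone, with 52.1% of the top decile by anti-FLAG tags and 50.7% by streptavidin tags. Among common regions the median DMSO count stayed between 6 and 8 tags over the lower 9 deciles and was 16 in the top one.

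Common regions were longer than the others as a whole, yet shorter in most deciles of CHIR99021 tags. Their median length was 1442 bp (from 531 to 9866 bp), against 1117 bp for the other regions. Within a decile of CHIR99021 tags, the common regions had the smaller median length in 8 of 10 deciles. In the top decile it was 1888 bp against 2116 bp, and in the next 1370 bp against 1764 bp. The lower 6 deciles differed by at most a few percent, with ratios of medians from 0.971 to 1.02. The common regions also had the higher fold enrichment in the upper deciles. In the top decile the median anti-FLAG fold was 27.9 with a DMSO peak and 17.4 without, and the streptavidin fold was 30.1 and 18.9. In the ninth decile these were 19.1 and 12.7 for anti-FLAG, and 19.1 and 13.6 for streptavidin. Within the top decile the common regions also had more CHIR99021 tags, with a median summed CPM of 31.01 against 23.97, and in the ninth 16.35 against 15.68. Both deciles were therefore split further, after their values were seen, into 5 parts each by the same ranking. In the 10 parts the common regions had the smaller median length in 10 and the higher anti-FLAG and streptavidin fold in 9 each. In the part with the fewest tags of the top decile the folds were 15.4 against 15.6 and 16.85 against 16.97. Length and fold come from the same peak calls, and like tags over fewer bases lie denser. They are therefore not independent observations.

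**Figure D3:**
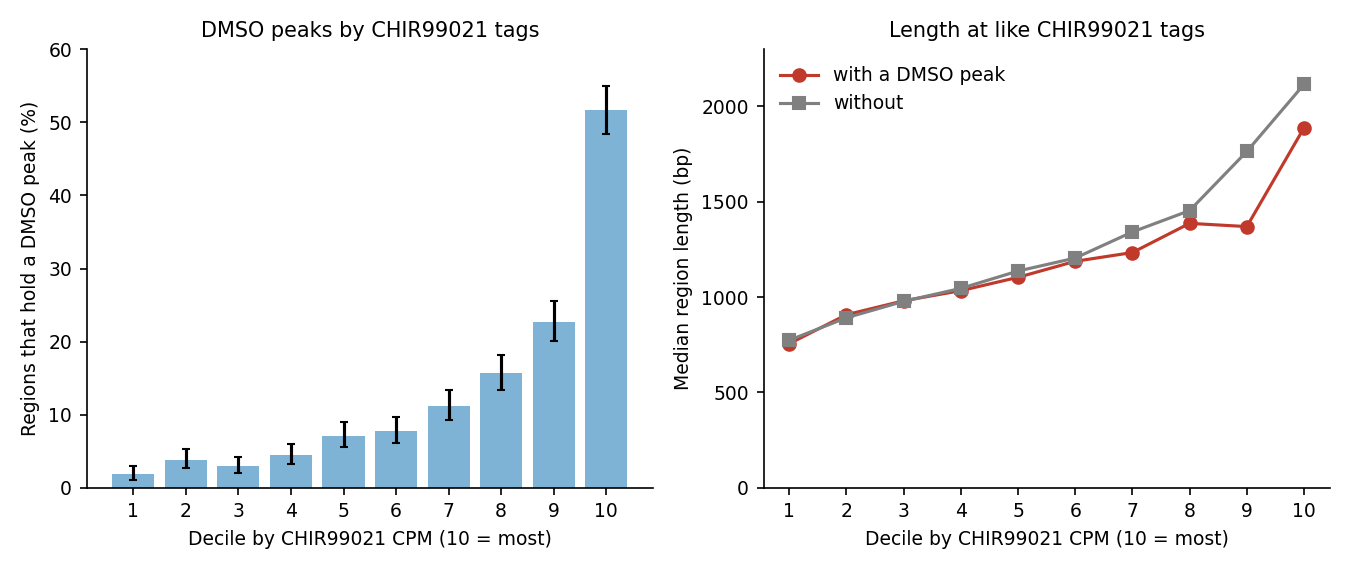
Regions of both CHIR99021 lists in deciles by summed CHIR99021 CPM. Left, percent with a DMSO peak, with 95% exact intervals, from 1.86% in the lowest decile to 51.8% in the top one; right, median length in bp with and without a DMSO peak, which part in the upper deciles (1370 against 1764 bp in the ninth).

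The extremes of length show both shapes. The longest common region lay on chromosome 19 (chr19:5838231-5848096, in mm9 coordinates as throughout) and held 525 anti-FLAG, 356 streptavidin and 10 DMSO tags. Its fold enrichments were 6.87 with anti-FLAG and 11.63 with streptavidin. The next longest, at chr8:109138246-109144794, chr1:154938493-154944849, chr6:92192950-92199118 and chr9:62672922-62679013, spanned 6549, 6357, 6169 and 6092 bp. They had between 258 and 335 streptavidin tags and from 7 to 15 DMSO tags. At the other end stood regions at chr14:59229458-59229988 and chr14:24382322-24382917, chr2:94430455-94431032, chr1:46209699-46210280 and chr13:66091805-66092411. These were 531 to 607 bp long, had 14 to 29 streptavidin tags and held 6 to 8 DMSO tags. These longest regions thus had about as few DMSO tags as the shortest ones, although their CHIR99021 tags were far more numerous. That holds for the named extremes only. Over all common regions the median length was 1245 bp where DMSO had 6 tags, 1482 bp at 10 to 14 and 1816 bp at 20 to 49.

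The regions with the most DMSO tags fell into 3 kinds, which were told apart after their values were seen. The first kind is a pair on chromosome 17, from 44740356 to 44743178 and, 1518 bp further on, from 44744697 to 44747810. The first had 2435 anti-FLAG, 3111 streptavidin and 3073 DMSO tags, and the second had 541, 729 and 680. The ratio of unscaled DMSO to streptavidin tags was 0.988 (exact interval 0.939 to 1.04) and 0.933 (0.839 to 1.04), against a median of 0.108 over all common regions. The pair alone held 18.2% of all DMSO tags in common regions. Fold enrichment in the pair was 12.7 and 12.8 with anti-FLAG (median of all common regions 17.03), 18.26 and 34.4 with streptavidin (17.59) and 48.82 and 58.39 with DMSO (20.07). In the second region of the pair the summits of both CHIR99021 peaks lay 2267 bp apart.

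The second kind had many tags in all libraries and a DMSO to streptavidin ratio near the median of all common regions or above it. That median is not one of like tags, as the ratio was lower where CHIR99021 tags were more numerous. Among common regions its median was 0.375 in the lowest decile of CHIR99021 tags, 0.0816 in the ninth and 0.0825 in the top one. The regions of this kind lie in the top decile, and their ratios are all above its median. The region on chromosome 9 from 94559442 to 94563343 had 141 DMSO tags at a ratio of 0.117 (0.0974 to 0.139), and that from 69514870 to 69519669 had 100 at 0.110 (0.0883 to 0.135). At chr11:97521750-97524728 125 DMSO tags gave 0.155 (0.128 to 0.188). At chr14:64118401-64121699 and chr18:35916753-35918198 the counts were 98 and 121, with ratios of 0.202 (0.161 to 0.252) and 0.227 (0.185 to 0.278). The last of these intervals lies above 0.163, the upper quartile of all common regions, and the one before it starts just below. DMSO tags chose these regions and also enter the ratio, so these positions are a description and no test.

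The third kind was shorter than the median of 1442 bp and had many anti-FLAG and DMSO tags. Its streptavidin tags were at or below the median of 100 of all common regions. On chromosome 4, the region from 150978239 to 150979578 had 386 anti-FLAG, 89 streptavidin and 114 DMSO tags. That at chr19:4988564-4989569 had 259, 93 and 114, and that at chr15:72398575-72399736 had 252, 100 and 122. Their DMSO to streptavidin ratios were 1.28 (0.962 to 1.71), 1.23 (0.924 to 1.63) and 1.22 (0.929 to 1.61). Together with chr2:32873243-32874121 (139, 17 and 25 tags) and chr9:21754335-21755436 (352, 73 and 85 tags), they had the highest ratios among common regions of at least 20 DMSO tags. In all 5 of them anti-FLAG exceeded streptavidin in CPM, by 1.87-fold on chromosome 15 and by 2.06-fold to 6.06-fold in the others. The streptavidin count is the denominator of both ratios, so they are linked by construction.

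The balance of the captures was therefore followed with the DMSO tags themselves. Anti-FLAG CPM was at least 2-fold that of streptavidin in 19 common regions (1.61%), against 0.845% of all 9113 regions of both CHIR99021 lists. The opposite balance was found in 15 common regions (1.27%), against 3.00%. The 19 regions had 6 to 114 DMSO tags with a median of 26, and 17 of them had 14 or more. The 15 regions had 6 to 20 with a median of 6, and 1 of them had 14 or more. With 10 or more DMSO tags in place of 14, these were 17 of the 19 and 2 of the 15. The ranges overlap, but most of the anti-FLAG set lay above nearly all of the streptavidin set. Anti-FLAG counts differed as well, with medians of 183 and 45. Among the 853 common regions of balance within 2-fold that had 64 to 400 anti-FLAG tags, the range of the 19, the median was 10 DMSO tags, and 34.1% had 14 or more. The 853 shared that range but were not matched within it: their median was 143 anti-FLAG tags, against 183 in the 19. Relative to anti-FLAG tags, DMSO tags had medians of 0.172 in the 19 regions, 0.167 in the 15, where the floor of 6 tags weighs on low counts, and 0.0921 in the rest.

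Read from all regions of both CHIR99021 lists, 19 of the 77 with at least 2-fold more anti-FLAG held a DMSO peak (24.7%, exact interval 15.6 to 35.8%), and 15 of the 273 with at least 2-fold more streptavidin did (5.49%, 3.11 to 8.90%). Between these ends the share was 16.2% where the ratio lay from 0.707 to 1 and 6.58% where it lay from 1.41 to 2. With a limit of 1.5-fold in place of 2-fold, the shares were 10.2% (7.42 to 13.6%) on the anti-FLAG side and 8.48% (7.10 to 10.03%) on the streptavidin side, so the contrast between the sides is not seen at that limit. Counting only DMSO peaks of at least 10 tags, the shares were 22.1% and 0.733%. The regions furthest to the anti-FLAG side were those on chromosome 2 and chromosome 9 named above, chr8:87470090-87471763 (with 206, 36 and 19 tags in anti-FLAG, streptavidin and DMSO), chr4:139814445-139815697 (with 400, 70 and 30) and the one on chromosome 4 from 150978239. Those furthest to the streptavidin side lay at chr9:9591092-9591987, chr14:100185208-100186175, chr1:39958741-39960607, chr11:30648826-30651231 and chr11:107213726-107216516, with 31 to 146 streptavidin tags, 17 to 88 anti-FLAG tags and 6 to 20 DMSO tags. The 19 regions were also short, at 780 to 1674 bp with a median of 1051 bp. The DMSO library is labelled as a streptavidin capture and its run is named for FLAG; the part of that discrepancy in these values was not tested.

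The ratio sets tags of intervals of unequal width side by side, since DMSO peaks in common regions had a median length of 84 bp and streptavidin peaks one of 1308 bp. The 5 regions with the lowest ratios had 2112 to 6169 bp, and their DMSO peak shared 47 to 120 bp with a CHIR99021 peak. The part of peak width in these ratios was not tested. At chr9:41542811-41546363 there were 360 anti-FLAG, 363 streptavidin and 7 DMSO tags, a ratio of 0.0193 (0.00770 to 0.0401). At chr12:12947850-12951222 there were 365, 345 and 7, and at chr6:92192950-92199118 413, 315 and 7. chr17:29192920-29196039 had 334, 349 and 8, and chr11:55759535-55761646 had 401, 342 and 8. Their upper interval bounds, between 0.0401 and 0.0466, lie below the lower quartile of all common regions. The regions were picked for the lowest ratios, which favours that position, so it is a description and no test.

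A summit is the position of the most tags in a peak. In common regions the anti-FLAG and streptavidin summits lay a median of 29 bp apart (interquartile range 13 to 59 bp), and 1039 of 1180 pairs (88.1%) were within 100 bp. In the other regions the median was 44 bp. Within deciles of CHIR99021 tags the common regions had the smaller distance in 5 of 10 deciles and the larger in 5, and the smaller in each of the upper 3, with 33 against 37 bp in the eighth, 26 against 35 bp in the ninth and 23 against 28 bp in the top one. In the finer split of the upper 2 deciles it was smaller in 9 of 10 parts. The summits fell on the same base in 10 common regions, of which the first by coordinate are at chr2:20574261-20577863, chr4:116454384-116455659 and chr6:12784567-12786033. They were more than 1000 bp apart in 10 as well, and the widest were the regions on chromosome 9 from 62672922 (4430 bp), chromosome 8 from 109138246 (3758 bp) and the second of the chromosome 17 pair.

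The DMSO summits lay near those of CHIR99021, with a wider spread. The leading DMSO summit was a median of 92 bp from the anti-FLAG summit and 88 bp from the streptavidin summit. Measured from the midpoint of both CHIR99021 summits, 646 of 1180 (54.7%) were within 100 bp and 971 (82.3%) within 200 bp, windows that cover 12.1% and 24.2% of the bases of the common regions. These shares of bases are pooled, so long regions weigh more in them, whereas the counts take each region once. The distance from the midpoint was shorter where DMSO had more tags: its median was 129.5 bp at 6 tags, 92.5 bp at 10 to 14 and 64.5 bp at 20 to 49. DMSO summits lay at the lower coordinate in 559 regions and at the higher in 619. Within 100 bp of the midpoint, the bins of 25 bp held 69 to 101 regions each, with 69 and 80 in those on either side of it. The DMSO peaks lay wholly inside a peak of each CHIR99021 list in 1123 common regions (95.2%).

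**Figure D4:**
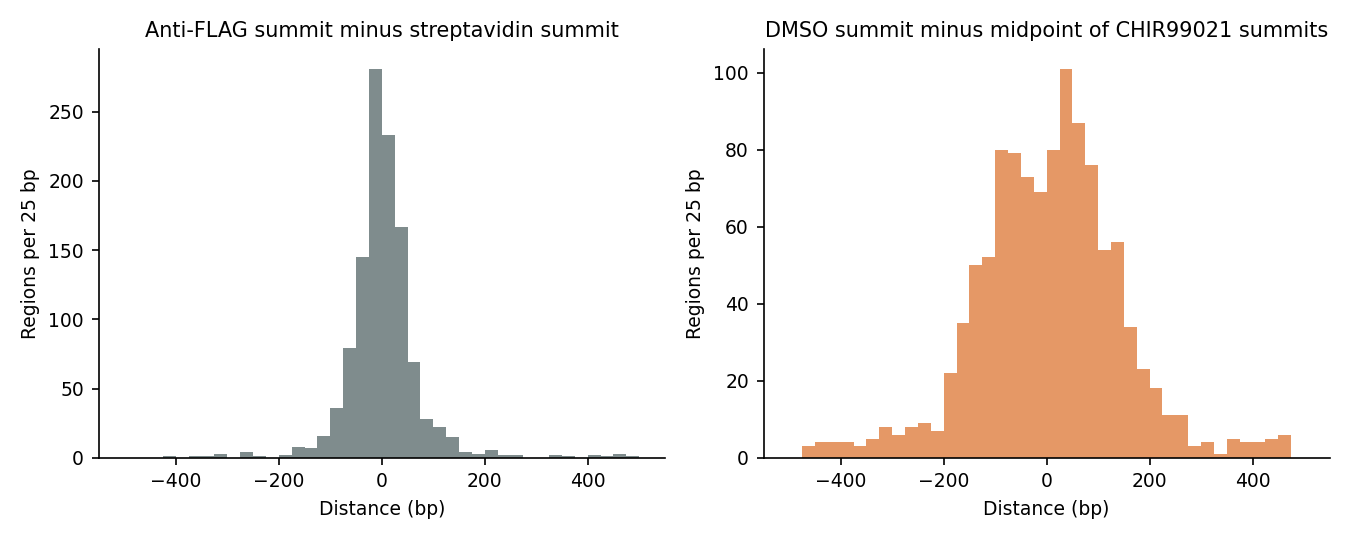
Distances in bp between summits in the common regions, in bins of 25 bp: anti-FLAG minus streptavidin (left) and leading DMSO summit minus the midpoint of both CHIR99021 summits (right), shown to 500 bp on either side. The left distribution is narrow around 0, and the right one is broad, with 69 to 101 regions in each bin within 100 bp of 0.

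Several DMSO peaks often shared 1 region. Of the common regions, 884 held 1 DMSO peak, 228 held 2, 53 held 3, 12 held 4 and 3 held 5, whereas anti-FLAG and streptavidin had a single peak in 97.5% and 98.0%. Neighbouring DMSO summits inside a region lay a median of 164.5 bp apart (interquartile range 112 to 248 bp). Where there were 2, one stood on each side of the midpoint of the CHIR99021 summits in 138 of 228 regions (60.5%), and the centre of the pair lay a median of 63.8 bp from it. MACS shifts tags by an amount set from a fragment length d that it estimates. The headers give a d of 185 bp for anti-FLAG, 214 bp for streptavidin and 30 bp for DMSO. The part of that setting in the split of the DMSO peaks, and in the wider spread of DMSO summits around those of CHIR99021, was not tested. The regions with the most DMSO peaks were chr1:191653915-191656541, chr2:44379283-44382619 and chr7:65479527-65481990 with 5 each and 39, 70 and 44 DMSO tags. Next came chr1:178573807-178575497 and chr4:13226963-13228204 with 4 each and 56 and 33 DMSO tags. All 5 were strong under CHIR99021, with 142 to 527 streptavidin tags.

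Common regions were found on every autosome and on chromosome X, while Y had no region of both CHIR99021 lists. Chromosome 9 had the most with 99, and X the fewest with 30. As a share of regions of both CHIR99021 lists, chromosome 9 was highest with 17.97% (exact interval 14.8 to 21.4%), followed by chromosome 8 with 16.1% (13 to 19.7%). Chromosome 7 was lowest with 9.27% (6.87 to 12.2%), beside X with 9.55% (6.54 to 13.4%). Chromosomes 8 and 9 together had 17.1% (14.9 to 19.5%) and all others 12.4% (11.7 to 13.1%). CHIR99021 tags followed the same pattern. The median summed CPM over regions of both lists was 9.63 on chromosome 8 and 9.48 on chromosome 9, between 6.77 and 7.56 on the other autosomes and 5.13 on X. At like tags the excess was not seen in the upper deciles. In the top decile 48.1% of regions on chromosomes 8 and 9 held a DMSO peak (40.7 to 55.6%) against 52.7% elsewhere (48.98 to 56.4%). In the ninth decile 22.7% did in both. In the seventh the share was lower on chromosomes 8 and 9, 4.72% (1.75 to 10.0%) against 12.2% (10.0 to 14.7%). It was higher there in deciles 2, 4 and 5, at 8.20, 6.67 and 9.76% against 3.53, 4.26 and 6.87%, from 5 to 8 common regions each. In deciles 1 and 6 it was also higher, at 2.22 and 8.18% against 1.845 and 7.74%, from 1 and 9 common regions. In deciles 3 and 8 it was slightly lower, at 2.86 and 15.2% against 2.97 and 15.8%. The whole DMSO list had 1336 peaks on chromosome 8 and 1286 on chromosome 9, and at most 894 on any other. Chromosomes 8 and 9 had 17.5% of their regions in the top decile and the others 9.04%.

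**Figure D5:**
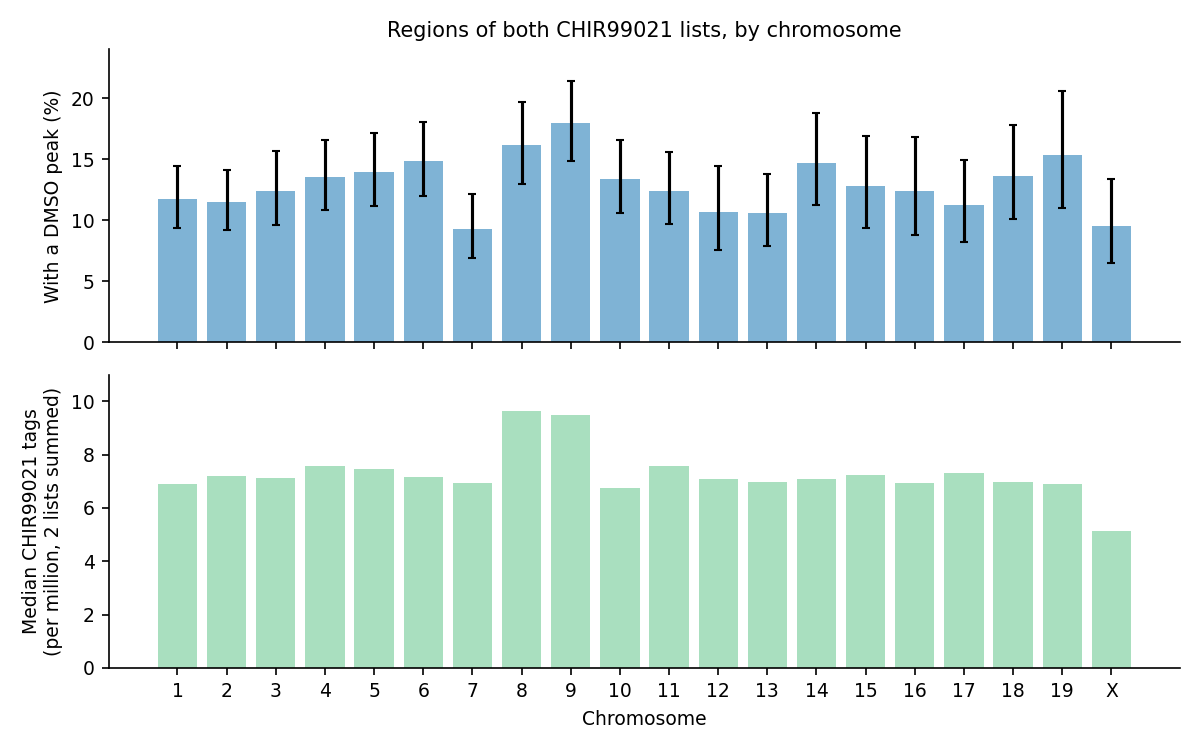
Regions of both CHIR99021 lists by chromosome: percent with a DMSO peak, with 95% exact intervals (top), and median CHIR99021 CPM, both lists summed (bottom). Chromosomes 8 and 9 stand highest in both, and X is lowest in the bottom panel at 5.13.

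Common regions were mostly solitary. The median distance between neighbours on a chromosome was 1207 kb from midpoint to midpoint, with quartiles of 386 and 2723 kb. Another common region lay within 50 kb of 155 of the 1180 (13.1%, exact interval 11.3 to 15.2%), and 10.4% of the other regions had a common region that near (9.74 to 11.1%). Within 100 kb the shares were 19.9% and 16.7%. Neighbours of any kind from both CHIR99021 lists were also somewhat more frequent around common regions, with 52.8% against 48.4% within 50 kb. Joining common regions less than 50 kb apart gave 61 runs of 2, 11 of 3 and 1 of 4, with 1021 left single.

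The run of 4 lay at chr9:61114528-61188316 over 73789 bp and had 918 anti-FLAG, 836 streptavidin and 103 DMSO tags in all. Its regions had 15, 8, 39 and 41 DMSO tags in order of position beside 175, 71, 388 and 202 streptavidin tags. On chromosome 2, a run of 3 (20574261 to 20611797) had 41, 7 and 6 DMSO tags beside 322, 220 and 83 streptavidin tags. Another at chr2:44379283-44424088 had 70, 8 and 7 beside 527, 186 and 33. In all 3 runs, 1 or 2 regions held most of the DMSO tags, and the remaining ones had 6 to 15.

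The rule turns on shared bases, so its edge was examined without a test. The least overlap belonged to a common region at chr18:52624925-52625631, whose DMSO peak shared 9 bases with a CHIR99021 peak. Regions at chr17:48643781-48645451 and chr9:71983258-71984100 followed with 27 and 28. All 3 had 6 DMSO tags and 16 to 79 streptavidin tags. Just outside, the region at chr12:118488510-118489574 lay 1 bp from a DMSO peak, and regions at chr11:8540999-8542812 and chr9:42665001-42667274 lay 10 and 11 bp from one. These DMSO peaks had 6 tags each, and the regions had 50 to 236 streptavidin tags. Only 9 regions of both CHIR99021 lists missed a DMSO peak by 100 bp or less, and 61 by 500 bp or less.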

How the data were processed

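β-Catenin ChIP-seq peak tables of 3 libraries were used; the 2 input libraries entered only as controls of the authors' calls. Per the file headers, the authors ran MACS on ELAND alignments, each ChIP library against an input, at a p-value cutoff of 1.00e-05. Genome build mm9 is given in the submitters' processing notes. The deposited columns are tag counts (whole tags in a peak), a score of 10 times −log10 p, a fold ratio over local background and an FDR in percent, per the file headers. Headers give 16100920 unique tags for anti-FLAG, 11934863 for CHIR99021 streptavidin and none for DMSO. Summits were taken as start plus offset, as in the deposited DMSO windows.

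Intervals that overlapped or touched were merged. Tags were summed per region and list and scaled to unique tags (CPM) for both CHIR99021 libraries. Intervals are exact (Clopper-Pearson, 95%); a ratio of tags takes its interval from the binomial share. They cover counting error only. With 1 library per group no test was run. Gene and promoter tables at hand are of GRCm38, so no gene or sequence was assigned. Members and lists were chosen with earlier results of these data known. The rule for named regions took the extremes of DMSO tags, tag ratios, length, DMSO peak number and summit distance, the fullest runs and those nearest the edge of the overlap, with ties broken by coordinate. The merging was tested on simulated lists and recovered 300 of 300 planted regions. Alternatives changed thresholds, DMSO peaks, tag sums, ranking and distances. The software was scipy 1.17.1, pandas 2.3.3 and numpy 2.4.6 under Python 3.11.15, with figures from matplotlib 3.10.9.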

Additional observations from a re-analysis of the deposited data

How the results depend on the processing

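The number of common regions was 237 at a p score of at least 100, 771 at an FDR of at most 1% in the CHIR99021 lists and 428 with DMSO peaks of at least 10 tags, against 1180. It was 831 when peaks over an FDR of 5% were dropped from each list (any remaining DMSO peak counts, not the leading one alone), 808 with every fold at least 10, 1193 with windows of 400 bp for DMSO, 942 with all summits within 200 bp and 1001 without chromosomes 8 and 9. The share of regions of both CHIR99021 lists with a DMSO peak was 4.96% at that p score and 4.70% with DMSO peaks of at least 10 tags. There the median length was 1737 and 1716 bp. With DMSO peaks of at least 10 tags, which differs from 10 or more DMSO tags summed over a region, the median anti-FLAG, streptavidin and DMSO tags were 209, 177 and 15. In that setting the summit distances were 23 bp between captures, 71 bp from anti-FLAG to DMSO and 70 bp from streptavidin to DMSO. The spacing was 3227 kb. With the nearest pair of summits the DMSO distances were 81 and 79 bp. From leading peaks alone, the DMSO to streptavidin ratio was 0.0930. Rankings and limits for the balance of captures and the deciles, and leaving out the pair on chromosome 17, were added after seeing the data. At 1.5-fold, 41 common regions lay on the anti-FLAG side, with a DMSO share of 10.2% and a median of 16 DMSO tags. On the streptavidin side the share, at 2-fold, was 0.733% with DMSO peaks of at least 10 tags. The length ratio in the top decile, 0.892, was 0.932 with DMSO peaks of at least 10 tags. The cause of these moves was not tested, except that stricter limits leave fewer peaks. Of 49 alternatives, 27 gave a value inside the main value's interval, or a count within 1.5 times the main one. Position relative to genes was left out for want of an mm9 annotation. No paired analysis was possible because 1 library stood for each condition. How many regions escaped a DMSO call for want of depth cannot be told, as that depth is unknown.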
